A study of Mus musculus with 2 samples.

Results

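The ETO corepressor family was followed here through its 3 members, Runx1t1, Cbfa2t2 and Cbfa2t3, taken by symbol from the 18088 gene rows of 1 single-cell RNA library. All 3 members had a row. The cells came from the medial ganglionic eminence (MGE), the ventral forebrain bulge that makes GABAergic interneurons and cholinergic neurons, of CD-1 mouse embryos at E11.5. The tissue was run as a multiplexed pool on the 10x Chromium platform, and the labels name 2 enhancers, hs192 and hs799. The accompanying list names 6 sample barcodes. Of these, 4 were GFP-gated (2 for hs192 and 2 for hs799) and 2 were ungated (1 for each enhancer). No file assigned a cell to a barcode, so the pool was 1 sample, gated and ungated cells could not be compared, and the gate can set the share of cells in each class. Embryos were pooled, and the labels give no other genotype or allele. With 1 library there was no replicate error, and no test was made. The members were chosen by name with results of these data in view, among them the levels of Runx1t1 and Cbfa2t3 in neurons, so their differences between progenitors and neurons are a description.

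ETO proteins do not bind DNA themselves. They are scaffolds that join DNA-bound transcription factors, among them the E proteins, to the nuclear receptor corepressors, Sin3 proteins and histone deacetylases. Runx1t1 (also ETO or MTG8) is known as the fusion partner of RUNX1 in acute myeloid leukaemia, Cbfa2t3 (ETO2 or MTG16) as a corepressor in blood cell complexes with TAL1 and LDB1, and Cbfa2t2 (MTGR1) as a partner of PRDM14 in pluripotent and germ cells. In vertebrate embryos the family has also been tied to neuron formation downstream of proneural factors.

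In the mouse genome (GRCm38, GENCODE annotation) Runx1t1 lies at chr4:13743436-13893649 on the plus strand, Cbfa2t2 at chr2:154436481-154539356 on the plus strand, and Cbfa2t3 at chr8:122625141-122699109 on the minus strand. Each is protein-coding, and Cbfa2t3 overlaps 3 other gene models, Gm20388, Gm15899 and Gm10612, none of which was analysed here. E-boxes are marked because E proteins, which are partners of ETO factors, bind them. Whether E-boxes bear on the levels of the members was not tested. The promoters below are those of Cbfa2t3, which was higher in neuron-like than in ventricular zone cells, and of Cbfa2t2, which was not. They are the 250 bases upstream of the RefSeq starts of Cbfa2t2 (1 start, chr2:154436234-154436483, plus strand) and Cbfa2t3 (2 starts, chr8:122678176-122678425 and chr8:122699110-122699359, minus strand), on build GRCm38.p6. Each is written 5′ to 3′ along the gene, and capitals mark E-boxes (CANNTG, the motif read by basic helix-loop-helix factors, which reads as CANNTG on both strands).
Cbfa2t2: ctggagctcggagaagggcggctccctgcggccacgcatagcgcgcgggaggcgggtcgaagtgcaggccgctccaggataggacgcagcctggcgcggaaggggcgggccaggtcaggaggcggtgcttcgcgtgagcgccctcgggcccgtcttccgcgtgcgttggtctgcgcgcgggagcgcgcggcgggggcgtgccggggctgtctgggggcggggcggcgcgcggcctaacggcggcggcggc
Cbfa2t3, inner start: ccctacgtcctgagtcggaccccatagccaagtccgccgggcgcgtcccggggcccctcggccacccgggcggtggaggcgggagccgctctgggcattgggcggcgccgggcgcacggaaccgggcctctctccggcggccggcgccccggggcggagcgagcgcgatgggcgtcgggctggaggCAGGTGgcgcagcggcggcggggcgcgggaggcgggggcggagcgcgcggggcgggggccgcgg
Cbfa2t3, outer start: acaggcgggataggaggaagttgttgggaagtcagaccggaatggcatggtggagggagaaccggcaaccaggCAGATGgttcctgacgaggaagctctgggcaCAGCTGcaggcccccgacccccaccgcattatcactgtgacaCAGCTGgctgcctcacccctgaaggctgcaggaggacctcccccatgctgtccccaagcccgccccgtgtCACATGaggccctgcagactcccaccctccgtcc

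The Cbfa2t2 stretch held 0 E-boxes and 41 CpG dinucleotides. The inner Cbfa2t3 stretch held 1 E-box, CAGGTG, whose first base lies 64 bases before the start, and 43 CpG. At the outer Cbfa2t3 start there were 4 E-boxes, CAGATG at 177, CAGCTG at 146 and at 104, and CACATG at 34 bases before the start, with 9 CpG. Of 32851 RefSeq promoter stretches of the same length, 66.2% held an E-box, 13.0% a CAGCTG and 17.2% a CAGGTG on either strand, and the median CpG number was 6. The Runx-site core TGTGGT, searched on both strands, was in none of the 3 stretches and in 14.0% of all stretches. A match is a run of letters and not a bound site. The 10x tags do not say which of the 2 Cbfa2t3 starts was in use, and the Runx1t1 promoter was not used here.

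The deposited table held 4001 cells, of which 3995 were used after 6 (0.150%) were called doublets. That is too few calls to show that doublets are rare. Its values are whole numbers from 0 to 1245 whose cell totals lie between 10475 and 14196, so the depth at which each cell was sequenced is unknown. Cells were clustered without the 3 members and clusters named from marker lists. This gave 1022 ventricular zone progenitor-like cells (the dividing cells that line the ventricle) and 607 subventricular zone progenitor-like cells. The second name stands for the intermediate progenitors beyond the ventricular zone. That class also held 165 cells (cluster 10) whose division genes were near the levels of neuron-like cells. A further 2130 cells were neuron-like, and 236 were unnamed. Of the neuron-like cells, 528 were GABAergic MGE neuron-like (cluster 1), 876 cholinergic neuron-like (clusters 4, 6 and 7), 76 like neurons of the lateral ganglionic eminence, LGE (cluster 15), and 650 had no regional name (clusters 5, 11 and 13). Chat, the defining enzyme gene of cholinergic neurons, was not analysed here, so that name rests on Lhx8, Gbx, Zic and other early markers. Isl1, on the same marker list, was at 0.318, 0.139 and 2.23 in clusters 4, 6 and 7. It was at 0.780 and 1.26 in clusters 5 and 13, so clusters 4 and 6 were low in it. Lhx6, a GABAergic MGE marker, was at 3.58, 3.32 and 2.22 in clusters 4, 6 and 7 and at 3.43 in cluster 1. Nkx2-1, the MGE factor, had a value in 78.2% of cells. Blood-cell genes (5 of 6 listed) had summed levels of 1.56 to 2 in every named class; what such shared RNA adds to the values below was not tested. Class sizes depended on the clustering: under the other settings run the GABAergic class held 505 to 1106 cells, the cholinergic class 477 to 953, and the LGE class 74 to 281.

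Runx1t1 and Cbfa2t3 were both far higher in neurons than in ventricular zone progenitors, and Cbfa2t2 was slightly lower there. The level is a gene's summed value per 10000 summed values of the class, with the SD over cells. It is not corrected for transcript length, so it is compared within a gene only. For Runx1t1 it was 0.138 ± 0.484 in the ventricular class, 0.613 ± 1.21 in the subventricular class and 4.44 ± 3.63 in neuron-like cells. A neuron-like cell held a Runx1t1 value of 0 at the lowest, 5 at the median and 34 at the highest, and both progenitor medians were 0. A Runx1t1 value was present in 13.0% (exact 95% interval 11 to 15.2%) of ventricular, 38.1% (34.2 to 42.1%) of subventricular and 90.0% (88.6 to 91.2%) of neuron-like cells. These intervals cover the counting of cells only. The 3 shares stand clear of each other, while the values of single cells overlap between classes.

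Cbfa2t3 followed the same direction with a different spacing. Its level was 0.071 ± 0.273 in ventricular, 0.822 ± 1.32 in subventricular and 1.69 ± 1.84 in neuron-like cells, and its shares were 7.93% (6.34 to 9.75%), 45.8% (41.8 to 49.9%) and 69.6% (67.6 to 71.6%). Neuron-like cells held a Cbfa2t3 value between 0 and 14, with a median of 1. Cbfa2t2 was low and varied less between the classes: its level was 0.255 ± 0.442, 0.284 ± 0.477 and 0.153 ± 0.362 in the same order, and the shares were 28.7% (25.9 to 31.5%), 29.8% (26.2 to 33.6%) and 16.7% (15.1 to 18.3%). The Cbfa2t2 intervals of the progenitor classes overlap, and that of the neuron-like cells lies below both. Median cell totals were 13520, 12380 and 11970 in these classes. After each cell was thinned to a total of 10000, the Cbfa2t2 shares were 21.9%, 25.4% and 13.7%.

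On the log2 scale the neuron-like over ventricular ratio was 5.01 for Runx1t1, 4.57 for Cbfa2t3 and -0.74 for Cbfa2t2. Of the 14749 genes with enough signal (at least 30 summed values in the 2 classes), 16.7% were at least 2-fold higher and 24.5% at least 2-fold lower in neuron-like cells; since the members were proposed from this contrast, nothing is read from their place among them. The subventricular over ventricular ratio was 2.15 for Runx1t1, 3.52 for Cbfa2t3 and 0.16 for Cbfa2t2. There 4.99% of 13313 genes were at least 2-fold higher and 12.0% at least 2-fold lower.

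**Figure D1:**
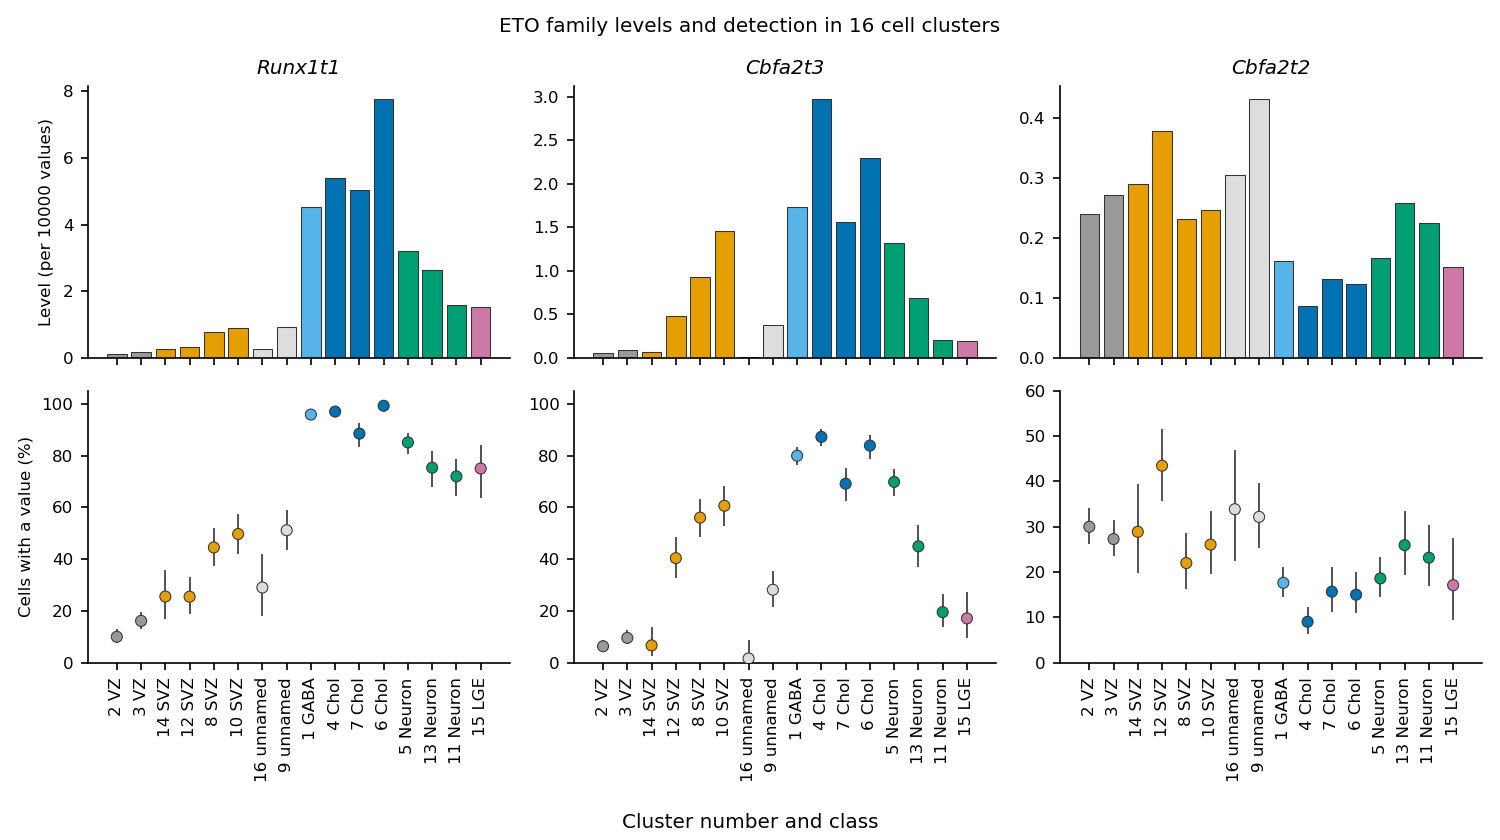
Levels (upper row, per 10000 summed values) and shares of cells with a value (lower row, %, with exact 95% intervals) of the 3 members in 16 clusters, coloured by class (VZ and SVZ, ventricular and subventricular zone progenitor-like; GABA, Chol and LGE, the named neuron-like classes; Neuron, no regional name). The vertical scales differ between genes. Runx1t1 is highest in cluster 6 (7.77), Cbfa2t3 in cluster 4 (2.98) and Cbfa2t2 in cluster 9 (0.431).

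Within the subventricular class the 2 neuronal members were spaced differently. The class as a whole had 48.6% of the neuron-like level for Cbfa2t3 and 13.8% for Runx1t1. In cluster 10, led by the Notch ligand gene Dll3, the LIM homeobox gene Isl1 and the cell cycle inhibitor gene Cdkn1c, Cbfa2t3 stood at 1.46 ± 1.88, which is 86.3% of its neuron-like level. Runx1t1 stood at 0.908 ± 1.56 there, which is 20.4% of its own. Cluster 8, led by the mitotic genes Ube2c and Cdc20, had 55.3% of the neuron-like level for Cbfa2t3 and 17.6% for Runx1t1, and cluster 12, led by histone genes, had 28.8% and 7.56%. In cluster 14, where the Notch target Hes5 was still at 12.3, both were low, with 4.28% and 5.71%. Cbfa2t2 did not follow this order: its level was 0.290 in cluster 14, 0.378 in cluster 12, 0.231 in cluster 8 and 0.246 in cluster 10.

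The same class was also divided at the median of its summed cell cycle genes, a range of a score and not a cell type, with 24 cells lying within 10% of the dividing value. Cbfa2t3 was at 0.557 ± 0.842 in the 303 cells above it and 1.10 ± 1.62 in the 304 cells at or below it. Runx1t1 was at 0.486 ± 1.08 and 0.748 ± 1.32, and Cbfa2t2 at 0.327 ± 0.466 and 0.239 ± 0.484. Shares with a value were 42.2% and 49.3% for Cbfa2t3, 32.0% and 44.1% for Runx1t1, and 36.3% and 23.4% for Cbfa2t2. The intervals on either side are apart for Runx1t1 and for Cbfa2t2, in opposite directions, and overlap for Cbfa2t3 (36.6 to 48.0% and 43.6 to 55.1%). This division is not independent of the clusters. Top2a, a gene of the score, was at 0.181 and 0.344 in clusters 10 and 14, against 6.60 and 13.9 in clusters 8 and 12. How many cells of each cluster lie on either side was not counted.

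Ordering the progenitor-like and neuron-like cells by neuron marker genes minus ventricular zone marker genes, none of them a member, gave 10 bins of 375 or 376 cells. Runx1t1 was at 0.077, 0.114, 0.169, 0.879, 3.18, 4.19, 4.26, 4.93, 5.24 and 3.49 from the first bin to the last. It first passed 0.5 of its highest bin in bin 5, with the cytoskeletal genes Dcx and Tubb3. Dcx and Tubb3 are among the neuron markers that set the order, so their own rise along it is built in. Cbfa2t3 was at 0.035, 0.068, 0.099, 0.732, 1.51, 2.07, 2.03, 1.89, 1.83 and 0.885. It passed 0.5 of its highest bin in bin 5 as well, but in bin 4 it had 35.4% of its highest level against 16.8% for Runx1t1, and its highest bin was bin 6 against bin 9. Cbfa2t2 lay between 0.232 and 0.299 in bins 1 to 4 and between 0.138 and 0.167 in bins 5 to 10.

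Genes of the step from progenitor to neuron passed the same mark earlier: Btg2, an antiproliferative gene, in bin 2, and Dll1, a Notch ligand gene, with Hes6, Gadd45g and Insm1 in bin 3. Dll3, Myt1 and Elavl3 passed it in bin 4, and Stmn2, a growth cone gene, in bin 6. Elavl3 and Stmn2 are also among the markers that set the order and are not independent landmarks on it. Bin 4 was 79.0% subventricular zone progenitor-like cells and bin 5 was 70.5% neuron-like cells. With 20 bins, 45% of the cells came before the Runx1t1 mark and 35% before the Cbfa2t3 mark. Clusters 11 and 15, the neuron-like clusters with high Meis2 (a striatal factor), made up 48.3% of the cells of bin 10. Without them bin 10 was at 5.39 for Runx1t1 and 1.52 for Cbfa2t3.

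**Figure D2:**
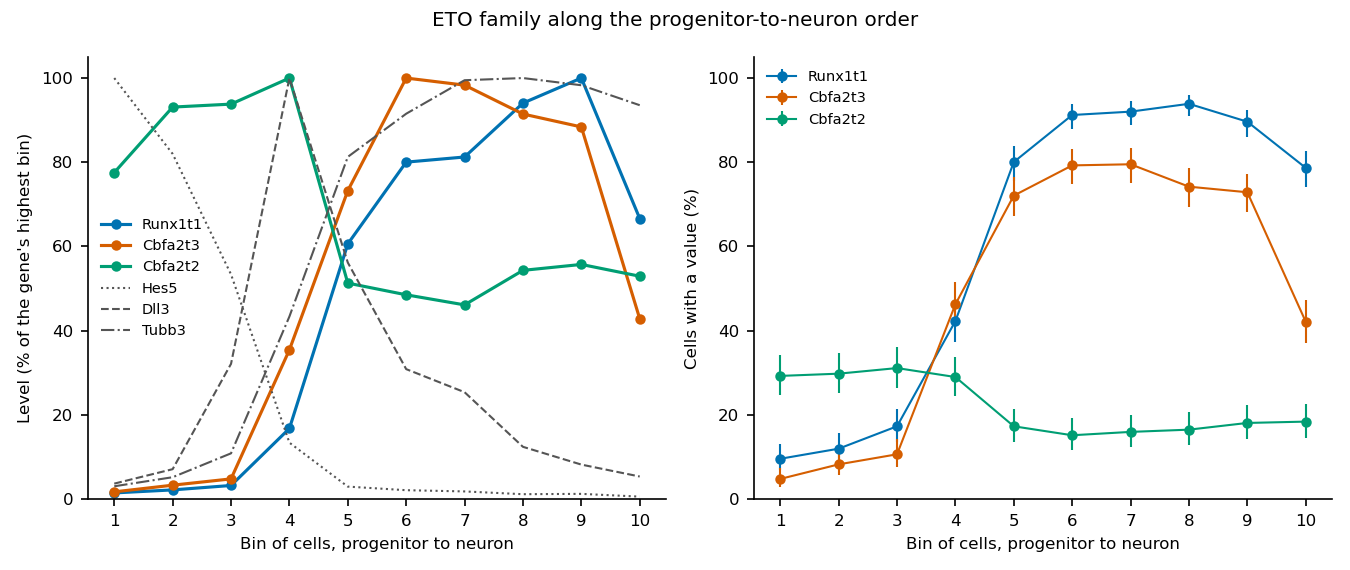
The 3 members along the order from progenitor to neuron, in 10 bins of the cells: level as % of the gene's highest bin (left; Hes5, Dll3 and Tubb3 in grey) and share of cells with a value (right, %, exact 95% intervals). Hes5 and Tubb3 are among the marker genes that set the order. Cbfa2t3 has 35.4% and Runx1t1 16.8% of its highest level in bin 4, and Cbfa2t2 is higher in bins 1 to 4 than in bins 5 to 10.

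Among the neuron-like classes, Runx1t1 was highest in the cholinergic-like class and Cbfa2t3 also, but neither differed from the GABAergic-like class by as much as 2-fold. That order belongs to the class as named, whose clusters 4 and 6 were low in Isl1. Neuron-like cells of any cluster with both Lhx8 and Isl1 had Runx1t1 at 3.67 and Cbfa2t3 at 1.38, below the GABAergic-like levels. Inside the cholinergic-like class this held for the cells with Isl1 in cluster 7 only (3.58 and 1.19). Cells with Isl1 in clusters 4 and 6 were above those levels, with Runx1t1 at 5.37 and 7.70 and Cbfa2t3 at 2.78 and 2.35. Runx1t1 was at 6.02 ± 3.91 in cholinergic-like and 4.52 ± 3.11 in GABAergic-like cells (log2 ratio 0.41), with nearly equal shares of 95.5% and 95.8%. Cbfa2t3 was at 2.42 ± 2.12 and 1.73 ± 1.52 (log2 ratio 0.48), with shares of 81.7% and 79.9%, and Cbfa2t2 at 0.109 ± 0.295 and 0.162 ± 0.374 (log2 ratio -0.57). In this contrast 3.88% of 12008 genes were at least 2-fold higher and 2.22% at least 2-fold lower in the cholinergic-like class, and 0 of the 3 members were among them. The 3 cholinergic-like clusters also differed from each other. Cluster 6, led by Nr4a2 and Gbx1, had the highest Runx1t1 level (7.77 ± 4.23, 99.2% of cells), against 5.41 ± 3.28 in cluster 4 (Zic1, Lhx8) and 5.03 ± 3.93 in cluster 7 (Robo3, Gbx2). Cbfa2t3 was instead highest in cluster 4 (2.98 ± 2.25, 87.2% of cells), against 2.30 ± 1.99 in cluster 6 and 1.56 ± 1.69 in cluster 7.

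LGE-like neurons had less of both Runx1t1 and Cbfa2t3 than the other named neurons. This contrast was added after values had been seen. Runx1t1 was at 1.54 ± 1.43 in the 76 LGE-like cells, with values from 0 to 8 and a median of 1.5, and in 75.0% (63.7 to 84.2%) of them. Cbfa2t3 was at 0.191 ± 0.486, with values from 0 to 3, in 17.1% (9.43 to 27.5%). That interval overlaps the 6.34 to 9.75% of ventricular progenitors, so the LGE-like share of Cbfa2t3 is not read as more than the progenitor share. Cbfa2t2 was at 0.151 ± 0.372, near its GABAergic-like level. The log2 ratio of LGE-like over GABAergic-like cells was -1.55 for Runx1t1, -3.18 for Cbfa2t3 and -0.10 for Cbfa2t2, where 6.15% of 10313 genes were at least 2-fold lower and 9.08% at least 2-fold higher. Over cholinergic-like cells it was -1.97, -3.66 and 0.47, where 5.32% of 11294 genes were at least 2-fold lower and 9.0% at least 2-fold higher. These contrasts share the LGE-like cells. Of the LGE-like cells, 72 fell in the last of 3 equal parts of the neuron-like cells on the marker order. In that last part Cbfa2t3 was at 0.200 in LGE-like, 1.85 in GABAergic-like (98 cells) and 2.14 in cholinergic-like cells (324), and Runx1t1 at 1.55, 4.84 and 6.58. Cluster 11, which had no regional name but high Isl1 (6.32) and Meis2 (8.64), stood close to the LGE-like cluster, with Runx1t1 at 1.58 ± 1.63 and Cbfa2t3 at 0.210 ± 0.496.

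Over all 16 clusters the order of Runx1t1 levels ran from 7.77 in cluster 6 through 5.41, 5.03 and 4.52 in clusters 4, 7 and 1 to 0.171 and 0.107 in clusters 3 and 2. Cbfa2t3 ran from 2.98 in cluster 4 through 2.30, 1.73 and 1.56 in clusters 6, 1 and 7 to 0.057 in cluster 2 and 0.013 in cluster 16, where 1 of 62 cells held a value. Cbfa2t2 ran from 0.431 ± 0.785 in cluster 9, led by the hypothalamic genes Hmx2 and Otp, and 0.378 ± 0.468 in cluster 12 to 0.086 ± 0.292 in cluster 4. For each member, all 15 gaps between neighbours in its order were smaller than the SD over cells. That SD is the spread of single cells and not the uncertainty of a cluster level. The count therefore does not tell whether the order holds. The share intervals were apart in 6 of 15 neighbour pairs for Runx1t1, 2 for Cbfa2t3 and 0 for Cbfa2t2. At the ends of the Cbfa2t2 order the shares were apart: 43.5% (35.7 to 51.5%) of cells in cluster 12, the cluster with the highest share, and 9.02% (6.40 to 12.3%) in cluster 4, with median totals of 13485 and 11710.

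Cells that held Isl1, the LIM homeobox gene of striatal and cholinergic precursors, had lower Runx1t1 and Cbfa2t3 levels in some clusters. The shares of cells with a value stood apart by Isl1 for Runx1t1 in 3 of 7 clusters and for Cbfa2t3 in 0 of 7. Other genes tried also set shares apart, as given below. This division was chosen after values had been seen, as 1 of 4 genes tried (Isl1, Lhx6, Lhx8 and Zic1; 27 gene and cluster pairs with at least 20 cells on each side), and it concerns the 7 clusters with enough cells for Isl1. In cluster 7 Runx1t1 was at 3.58 ± 3.79 in the 111 cells with Isl1, of which 77.5% (68.6 to 84.9%) held a value, and at 6.60 ± 3.47 in the 106 without, of which 100% (96.6 to 100%) did. In cluster 13 it was at 1.62 ± 2.01 with and 3.36 ± 3.11 without Isl1, and in cluster 5 at 2.44 ± 2.59 and 3.47 ± 2.80. In those 3 clusters the intervals of the Runx1t1 shares are apart. Cbfa2t3 was at 1.19 ± 1.49 with and 1.97 ± 1.80 without Isl1 in cluster 7, with shares of 60.4% (50.6 to 69.5%) and 78.3% (69.2 to 85.7%), whose intervals overlap. In the Dll3 cluster, 10, Runx1t1 was at 0.661 with and 1.69 without Isl1 and Cbfa2t3 at 1.14 and 2.46, with overlapping share intervals.

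In clusters 1, 4 and 6 Runx1t1 was at 4.86, 5.37 and 7.70 in cells with Isl1 and at 4.49, 5.42 and 7.78 in cells without. Cbfa2t3 there was at 1.58, 2.78 and 2.35 with Isl1 and at 1.74, 3.03 and 2.30 without. Its shares were 66.7%, 79.7% and 91.2% with Isl1 and 81.0%, 89.1% and 82.7% without, lower with Isl1 in clusters 1 and 4 and higher in cluster 6, with overlapping intervals in each. Cluster 7 also differed by Lhx6, with Runx1t1 at 5.66 ± 3.60 in 158 cells with Lhx6 and 3.35 ± 4.27 in 59 without. The Runx1t1 share intervals were apart by Lhx6 in cluster 7 (94.9% with, 71.2% without) and cluster 5 (87.7% and 57.1%). Those of Cbfa2t3 were apart by Lhx6 in cluster 13 (50.8% and 15.4%) and by Lhx8 in cluster 5 (75% and 58.7%). They were also apart by Zic1 in cluster 6 (88.2% and 72.6%), so divided shares are not particular to Isl1. When Isl1 was read from one random part of each value and the members from the other, cluster 7 had Runx1t1 at 3.82 with and 6.35 without Isl1 and Cbfa2t3 at 0.967 and 1.87. Without use of the clusters inside the class, neuron-like cells with Lhx8, the cholinergic and interneuron LIM factor, but no Isl1 (1262 cells) had Runx1t1 at 5.36 ± 3.64 and Cbfa2t3 at 2.10 ± 1.93. Those with both (415) had 3.67 ± 3.52 and 1.38 ± 1.79, those with Isl1 but no Lhx8 (236) had 1.80 ± 1.98 and 0.348 ± 0.752, and those with neither (217) had 3.58 ± 3.14 and 1.44 ± 1.34. Cbfa2t2 was at 0.127, 0.171, 0.199 and 0.213 in the same groups.

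**Figure D3:**
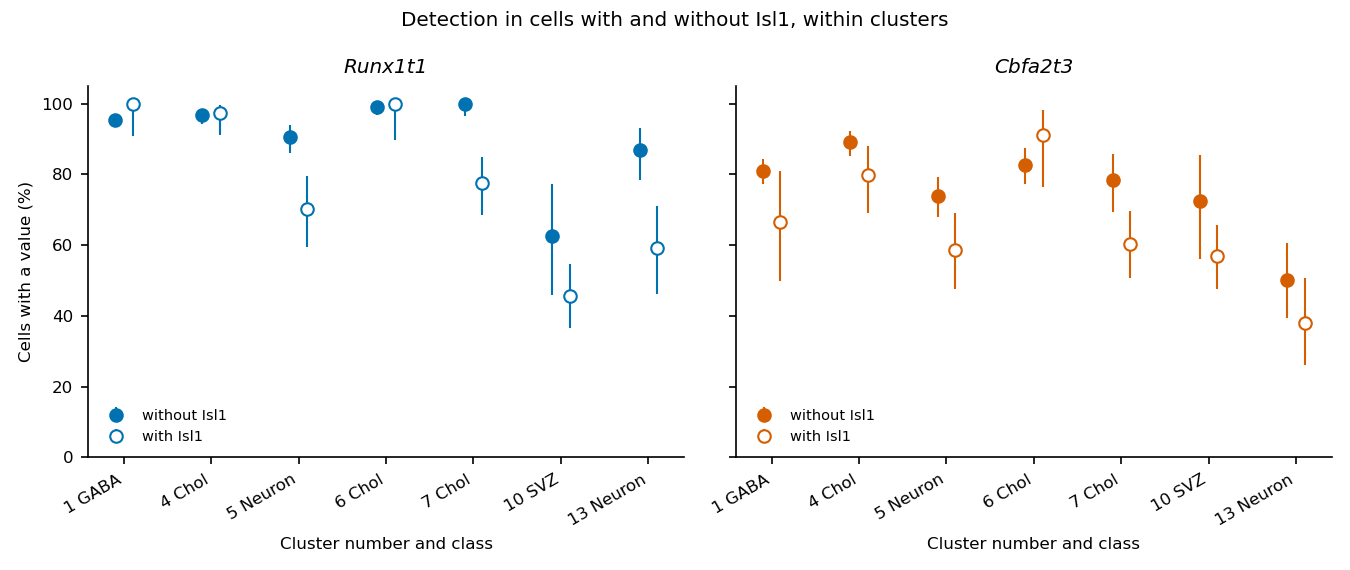
Share of cells with a Runx1t1 (left) or Cbfa2t3 (right) value, in %, among cells with (open) and without (filled) an Isl1 value in 7 clusters, with exact 95% intervals. The Runx1t1 intervals are apart in clusters 5, 7 and 13 and overlap in clusters 1, 4, 6 and 10, and the Cbfa2t3 intervals overlap in all 7 clusters.

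Within the subventricular class Runx1t1 was more frequent in cells with Cbfa2t3 than in cells without it, and this was not particular to that class. A Runx1t1 value was held by 48.9% (42.9 to 55%) of the 278 cells with Cbfa2t3, against 28.9% (24.0 to 34.1%) of the 329 without. After thinning the shares were 47.0% and 23.0%. In cholinergic-like cells the shares were 96.9% and 89.4%, and in GABAergic-like cells 96.0% and 95.3%, with overlapping intervals in the latter. Both members follow the progenitor-to-neuron order inside the subventricular class, and the part of that order in the joint presence was not tested. For Cbfa2t2 with either of the other members, the intervals with and without it overlapped in each of the named classes. All 3 members were present together in 0.587% of ventricular, 6.10% of subventricular and 10.2% of neuron-like cells.

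The proteins that ETO factors join were described from lists written with earlier results of these data known. The corepressor complex genes had ratios in both directions, 9 of 10 of them within 2-fold. Of 10 listed genes, among them Ncor1, Hdac1, Hdac2, Hdac3, Sin3a, Sin3b, Tbl1x, Tbl1xr1 and Gps2, 1 was at least 2-fold lower in neuron-like than in ventricular cells (Tbl1x, a subunit of the nuclear receptor corepressor complex, log2 ratio -1.04) and 0 were 2-fold higher, beside 24.5% and 16.7% of all genes. Their median log2 ratio was -0.37, beside -0.17 over all genes. Hdac1 (-0.81) and Sin3a (-0.52) were lower within 2-fold, and Hdac2 (0.63) and Sin3b (0.51) higher. Ncor1 itself was at 2.52 ± 1.53 in ventricular and 2.94 ± 1.82 in neuron-like cells. In the LGE-like over GABAergic-like contrast 0 of these 10 differed 2-fold, where 6.15% of all genes were lower and 9.08% higher by that much, so that few of 10 would be counted at the rate of all genes.

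All 3 E protein genes, whose products pair with proneural factors and bind ETO proteins, were at least 2-fold lower in LGE-like than in GABAergic-like cells, beside 6.15% of all genes. Tcf4 was at 0.231 ± 0.466 against 6.36 ± 4.33, Tcf12 at 0.532 ± 0.666 against 2.75 ± 1.85, and Tcf3 at 0.281 ± 0.511 against 0.709 ± 0.836. Between neuron-like and ventricular cells Tcf3 was lower (log2 ratio -1.24), while Tcf4 and Tcf12 were within 2-fold (0.72 and 0.28). Of the 4 Id genes, whose products hold E proteins away from DNA, 2 had enough signal in the LGE-like over GABAergic-like contrast. Id4 ran the other way, at 3.78 ± 2.94 in LGE-like and 0.204 ± 0.511 in GABAergic-like cells. Id2 was within 2-fold (log2 ratio -0.25), and 9.08% of all genes were at least 2-fold higher. In neuron-like cells 3 of 4 Id genes were at least 2-fold lower than in ventricular cells, with a median log2 ratio of -2.88, beside 24.5% of all genes at least 2-fold lower and a median of -0.17.

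The zinc finger and blood complex partners were only partly measured. Zfp652, which encodes a DNA-binding partner of Cbfa2t3, was at 0.872 ± 0.963 in neuron-like and 0.415 ± 0.586 in ventricular cells (log2 ratio 1.07). It was 1 of 2 listed zinc finger genes with enough signal. The other was within 2-fold, beside 16.7% of all genes at least 2-fold higher. Runx1, Runx2, Runx3, Gata1, Gata2, Tal1, Lyl1, Gfi1, Gfi1b and Prdm14 were not analysed here. Of the 11 blood complex genes with enough signal, 4 were at least 2-fold higher and 4 at least 2-fold lower in neuron-like cells, beside 16.7% and 24.5% of all genes. Cbfb, the partner of Runx proteins, was at 0.333 ± 0.468 in ventricular and 0.088 ± 0.267 in neuron-like cells, Ldb1, which bridges LIM factors, at 0.457 ± 0.606 and 0.930 ± 0.939, and Ssbp2, which binds Ldb1, at 0.971 ± 0.951 and 2.97 ± 1.95. Among 11 other corepressor genes, 3 were at least 2-fold higher in neuron-like cells, the Groucho genes Tle2 (3.59) and Tle4 (2.11) and the histone demethylase gene Kdm1a (1.19), and 2 were at least 2-fold lower, Rest (-3.03), the repressor of neuronal genes, and Tle3 (-1.10). These counts are near the shares over all genes, 16.7% and 24.5%. Among the named classes Tle4 was highest in LGE-like cells, at 7.09 ± 4.68 against 0.608 ± 1.02 in GABAergic-like cells.

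**Figure D4:**
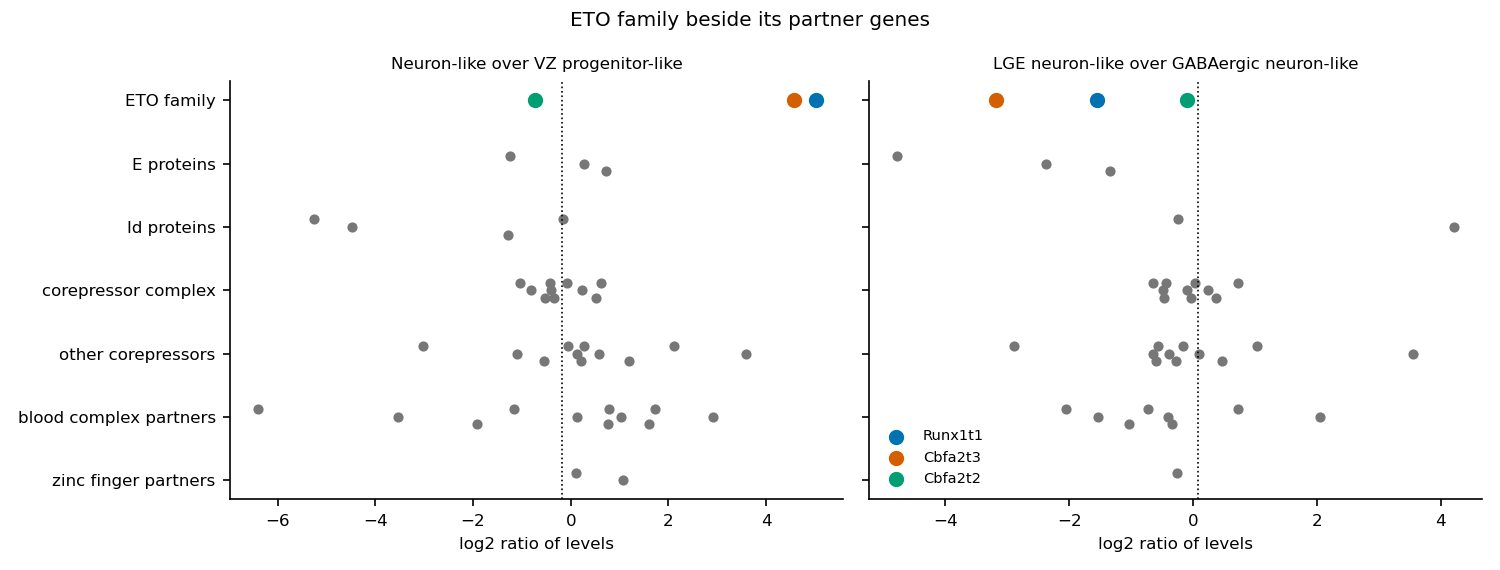
Log2 ratios of levels for the ETO members (coloured) and the genes of 6 partner lists (grey, 1 point a gene with at least 30 summed values), for neuron-like over ventricular zone progenitor-like cells (left) and LGE-like over GABAergic-like neurons (right). The dotted line is the median over all genes. The corepressor complex genes lie on both sides of that line on the left, with Tbl1x lowest (-1.04), and the 3 E protein genes lie below it on the right, with Cbfa2t3 (-3.18).

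The genes whose levels over the 16 clusters were most like each member were listed by Pearson correlation of log2 levels, as a description of clusters that share 1 library. For Runx1t1 these included Tbc1d30 (r = 0.978), Rapgef5 (0.973), Vps41 (0.967), Sema6c (0.966) and Smarcc2 (0.963). For Cbfa2t3 they were Elmo1 (0.943), Lhx6 (0.934), Dclk2 (0.933), Lhx8 (0.933), Ccdc88a (0.924) and Grik3 (0.923), and for Cbfa2t2 Sox1ot (0.892), Ctso (0.853), Zeb1 (0.853), Spsb4 (0.846), Dvl2 (0.842) and Nell2 (0.841). These lists are loose: with rank correlation 0, 3 and 2 of the 6 genes were shared for Runx1t1, Cbfa2t3 and Cbfa2t2. Between the members r was 0.839 for Runx1t1 with Cbfa2t3, -0.743 for Runx1t1 with Cbfa2t2 and -0.612 for Cbfa2t2 with Cbfa2t3. Lhx6 and Lhx8, the LIM factors of MGE neurons, had r of 0.788 and 0.782 with Runx1t1.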

How the data were processed

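Single-cell RNA was measured in 1 pooled MULTI-seq library, processed with Cell Ranger 3.0.2 on GRCm38 per the submitters' processing notes. The authors deposited whole-number values that are treated as a score, already evened out between cells: cell totals are nearly equal, and no source at hand records that step. No count model was used. In 194 cells (4.85%) genes rarely hold the value 1. Of 18088 rows, 9 repeated symbols were left out.

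Here scanpy 1.11.5 clustered 3995 cells (2000 variable genes without the members, 30 components, 15 neighbours, Leiden resolution 1). Cells called by Scrublet (expected rate 5%) were removed. A cluster took a name from at least 3 markers at 1.5-fold. The naming rule was revised after cluster and member values had been seen, because 2 large neuronal clusters had no name; 2 versions were run. The members, lists and marker genes were chosen with earlier results of these data known. Named genes are the members, the listed partners and the 6 genes most like each member. Some genes the rule names are not reported here. Shares carry exact (Clopper-Pearson) intervals. A class under 3 summed values took the floor of 3 in a ratio. The scripts were tested on simulated data. The LGE contrasts, the 3 parts of the neuron order and the divisions by Isl1, Lhx6, Lhx8 and Zic1 were added after seeing the data. The sample barcode list gave only the pool's makeup. Other clusterings, naming, scaling, thinning and split values were tried.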

Additional observations from a re-analysis of the deposited data

How the results depend on the processing

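No paired analysis was possible because the series holds 1 pooled RNA library and no test was made. A log2 ratio is counted as moved past 1.5-fold and a share once it leaves its interval. Levels are counted against 1 SD over cells, which is so wide that all 144 alternatives staying inside it say little. Of 135 alternative ratios 132 stayed and 3 moved, all of Cbfa2t3 in LGE-like cells: over GABAergic-like cells -2.30 at resolution 0.5, and over cholinergic-like cells -3.04 at resolution 0.5 and -3.04 from separate values. No called ratio changed sign. Those of Cbfa2t2 in LGE-like cells, which were under 2-fold, ranged from -0.51 to 0.31 and from -0.02 to 1. The Cbfa2t3 cholinergic-like over GABAergic-like ratio ranged from 0.18 to 0.80 and that of Runx1t1 from 0.39 to 0.67. The Runx1t1 neuron-like over ventricular ratio ranged from 4.86 to 5.08 and that of Cbfa2t3 from 4.38 to 4.88.

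Shares moved most when a value of 2 or more was asked for. For Runx1t1 they were then 2.74% in ventricular, 17.1% in subventricular, 80.3% in neuron-like, 86.9% in GABAergic-like, 91.3% in cholinergic-like and 50% in LGE-like cells. In the same order Cbfa2t3 had 1.17%, 25%, 49.5%, 57.0%, 64.7% and 5.26%, and Cbfa2t2 had 4.40%, 4.78%, 1.69%, 1.89%, 0.571% and 2.63%. Thinned to 10000, Runx1t1 had 32.9% in subventricular and 88.1% in neuron-like cells. Cbfa2t3 had 41.4% in subventricular, 64.7% in neuron-like, 73.5% in GABAergic-like and 77.2% in cholinergic-like cells, and Cbfa2t2 21.9% in ventricular, 25.4% in subventricular, 13.7% in neuron-like, 10.3% in cholinergic-like and 9.21% in LGE-like cells. Thinning also moved Cbfa2t3 in cells without Cbfa2t2 to 72.9% of GABAergic-like, 77.9% of cholinergic-like and 65.1% of neuron-like cells, and Runx1t1 in cells without Cbfa2t2 to 34.4% of subventricular and 88.1% of neuron-like cells. Runx1t1 was then in 92.8% of neuron-like cells with Cbfa2t3 and 23.0% of subventricular cells without it.

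Other clusterings moved some shares. In GABAergic-like cells Runx1t1 had 93.6% with the members left in, 90.6% at resolution 0.5, 91.8% with 4000 variable genes and 90.3% with called doublets kept, and Cbfa2t3 71.7%, 73.8% and 71.1% under the last 3. In neuron-like cells Runx1t1 had 87.3% with the members left in, 87.4% at resolution 0.5, 88.3% at resolution 2 and 87.5% with doublets kept, and Cbfa2t3 67.6% at resolution 0.5. In subventricular cells Cbfa2t3 had 39.7% with the members left in, 49.9% with 4000 variable genes and 39.5% with doublets kept. Under the first naming rule, which left clusters 4 and 5 unnamed and named clusters 9 and 16 as progenitors, neuron-like shares were 18.4% for Cbfa2t2 and 64.6% for Cbfa2t3, and cholinergic-like shares 15.3% and 77.1%. With rank correlation the genes shared with the main 6 numbered 0 for Runx1t1, 2 for Cbfa2t2 and 3 for Cbfa2t3. The causes were not tested. Sequencing depth per cell is unknown, which limits what a missing Cbfa2t2 value can show.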

Other observations

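In cells that rarely hold the value 1, which may have been scaled up from a lower total, Cbfa2t2 had a value in 8.33% (4.07 to 14.8%) of 120 neuron-like cells, against 17.2% (15.5 to 18.9%) of the other 2010. Runx1t1 had 90.8% and 89.9% and Cbfa2t3 66.7% and 69.8% in the same groups.

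The gene with the most opposite pattern to Runx1t1 over the 16 clusters was Fkbp3 (r = -0.962), and to Cbfa2t2 it was Spats2l (-0.852). Hyou1, Fasn and Pdia4 were most opposite to Cbfa2t3 (-0.942, -0.939 and -0.936). Zic1 divided cluster 6: Cbfa2t3 was at 2.56 ± 2.05 in its 187 cells with Zic1 and 1.66 ± 1.69 in the 73 without, and Runx1t1 at 8.38 ± 4.41 and 6.19 ± 3.26.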
